A study of Homo sapiens with 4 samples.

Results

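The genes of the aryl hydrocarbon receptor (AHR) pathway were examined in the ATAC-seq peak lists of HK1 cells, an established nasopharyngeal carcinoma line. The 7 genes were AHR, its partner ARNT, the repressors AHRR and TIPARP, the target genes CYP1A1 and CYP1B1, and the amino acid transporter gene SLC7A5. A peak was taken as belonging to a gene when it overlapped the GENCODE gene body or the 10 kb upstream of it, on GRCh38. After peaks that overlapped between lists were merged, 61 of 93211 regions met this rule, and they held 48 of the 59629 WT peaks, 48 of the 67470 WT-IFN-γ peaks, 44 of the 63203 sgFLI1 peaks and 44 of the 59923 sgFLI1-IFN-γ peaks.

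ATAC-seq reads open chromatin through the DNA that a transposase can cut and tag. The study asked how the transcription factor FLI1 shapes chromatin accessibility in the response to interferon-γ (IFN-γ), whose output in tumor cells includes kynurenine. The 4 groups were untreated wild-type HK1 cells (WT), wild-type cells given IFN-γ for a day (WT-IFN-γ), untreated cells lacking FLI1 by CRISPR knockout (sgFLI1; both knockout groups are called FLI1-KO), and FLI1-KO cells given IFN-γ in the same way (sgFLI1-IFN-γ). Where 4 values of a region are given without group names, they follow this order. Each group had 1 peak list, so replicate spread is unknown, no test between groups was run, and differences cannot be told apart from differences between single libraries or cultures. Whether the FLI1-KO cells were 1 clone or a pool is not given in the sources used here, and a peak list does not read the small lesion that a guide RNA leaves, so the knockout itself was not checked.

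AHR is a ligand-activated transcription factor that waits in the cytosol with chaperones. Bound by a ligand such as kynurenine or a dioxin, it enters the nucleus, pairs with ARNT and binds xenobiotic response elements, whose core is GCGTG, at genes such as CYP1A1 and CYP1B1. The same complex switches on AHRR, which competes for ARNT, and TIPARP, which ADP-ribosylates AHR, while SLC7A5 encodes the light chain of the transporter that carries tryptophan and kynurenine across the membrane.

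The label of the cells was checked with markers, counted as open where a peak summit lay at most 3 kb from the transcription start site (TSS) of the gene. Of 7 epithelial marker genes, 6 were open in every list, the exception being KRT14. Of 4 leukocyte genes, CD8A had such a peak in all 4 lists and PTPRC in WT alone, while CD3E and CD4 had none. GBP1, a textbook IFN-γ target, had a promoter peak in both IFN-γ lists and in neither untreated list, with 100 tags at the summit in WT-IFN-γ and 21 in sgFLI1-IFN-γ.

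Accessibility is given as the summit pileup, the number of tags stacked over the summit of a peak. To compare libraries, a pileup was divided by the tag density of its library, which was 8.04 (WT) and 8.84 (WT-IFN-γ) tags per kb for wild-type cells and 6.93 (sgFLI1) and 6.86 (sgFLI1-IFN-γ) for knockout cells, and the result is called the scaled pileup. Intervals are exact Poisson 95% intervals for a pileup and exact conditional binomial 95% intervals for a ratio, and they cover counting error only. The peaks of the 7 genes ran from weak to strong, and the share with a −log10 q over their list’s median was 52.1% (WT) and 56.3% (WT-IFN-γ) in wild-type cells and 65.9% and 68.2% in untreated and treated knockout cells. Their median scaled pileup was 5.72 for WT, 4.87 for WT-IFN-γ, 7.93 for sgFLI1 and 7.14 for sgFLI1-IFN-γ, beside 3.85, 3.39, 3.90 and 3.79 over all peaks of the same lists. Of the 61 regions, 35 were found in all 4 lists (57.4%), where 43.9% of all merged regions were. A further 14 regions were found in 1 list only, where 32.4% of all merged regions were, and these were weak, with 8 to 33 tags. AHR and AHRR held 18 regions each, CYP1B1 7, SLC7A5 6, TIPARP 5, CYP1A1 4 and ARNT 3.

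All 7 genes had an open promoter region in every list, and no promoter region differed by more than 1.5-fold between any of the 4 pairs of libraries compared (IFN-γ against untreated in each genotype, FLI1-KO against WT in each treatment). The promoter region of a gene was the region with its summit within 3 kb of the TSS that was found in the most lists and had the most tags. For CYP1A1 and SLC7A5 it lay upstream of the TSS and did not cover it. The region over the TSS was listed in WT alone for CYP1A1 (27 tags) and in every list but WT-IFN-γ for SLC7A5. By the mean over the libraries, the order of scaled pileups ran from TIPARP (25.2 to 33.9 over the 4 libraries) through ARNT (19.1 to 21.1), CYP1B1 (12.8 to 14.3), SLC7A5 (9.04 to 15.9), AHR (9.84 to 12.7) and CYP1A1 (8.60 to 10.2) to AHRR (7.47 to 10.8). The TIPARP and ARNT intervals did not overlap in WT, WT-IFN-γ or sgFLI1 and did in sgFLI1-IFN-γ, and those of neighbours among CYP1B1, SLC7A5, AHR, CYP1A1 and AHRR overlapped in every library. The ARNT and CYP1B1 intervals overlapped in WT and WT-IFN-γ and not in sgFLI1 or sgFLI1-IFN-γ.

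**Figure D1:**
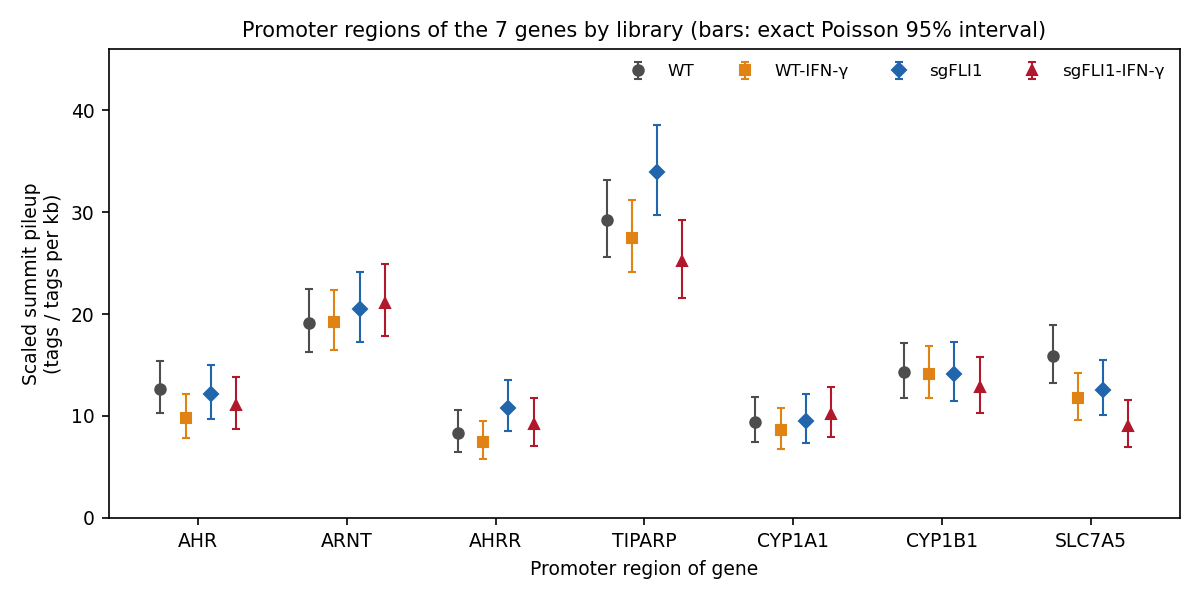
Scaled summit pileup (tags divided by tags per kb, y axis) at the promoter region of each of the 7 genes (x axis) in the 4 libraries, with exact Poisson 95% intervals. TIPARP is highest, at 25.2 to 33.9, and the 4 libraries of each gene lie within 1.5-fold in every pair compared.

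AHR, the receptor, had its promoter region at chr7:17298217-17299925, over exon 1. The summit held 102 (WT) and 87 (WT-IFN-γ) tags in wild-type cells and 84 (sgFLI1) and 76 (sgFLI1-IFN-γ) in knockout cells, which came to scaled pileups of 12.7, 9.84, 12.1 and 11.1. The 4 values were close. FLI1-KO against WT gave a ratio of 0.956 (0.707 to 1.29) untreated and 1.13 (0.816 to 1.55) with IFN-γ, and IFN-γ against untreated gave 0.776 (0.576 to 1.04) in WT and 0.914 (0.661 to 1.26) in FLI1-KO cells.

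Most of the other AHR regions lay far upstream. Those 58.7 to 315.8 kb upstream also overlapped another annotated gene, so they are not particular to AHR. The GENCODE gene body of AHR begins 382293 bp before the start of its canonical transcript, and 13 of its 18 regions were upstream of that start. The strongest of them, at chr7:17094480-17095576, had its summit 203.6 kb upstream and held 96, 95, 116 and 96 tags in the 4 libraries. FLI1-KO was higher there by 1.40-fold untreated (1.06 to 1.86), short of the 1.5-fold limit. This distal region is shown because its summit carries an AHR-ARNT core, next to the AP1 motif TGANTCA (chr7:17094999-17095199, plus strand, both motifs in capitals).

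AHR 203.6 kb upstream: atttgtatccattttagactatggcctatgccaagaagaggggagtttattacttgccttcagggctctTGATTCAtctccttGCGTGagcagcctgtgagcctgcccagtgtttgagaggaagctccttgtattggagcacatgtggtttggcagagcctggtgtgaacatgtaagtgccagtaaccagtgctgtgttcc

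A weaker region 257.2 kb upstream had 27, 27, 39 and 34 tags in the 4 libraries. FLI1-KO was past the limit there in both treatments, at 1.68 (1.00 to 2.85) and 1.62 (0.95 to 2.80), with intervals that lay at or across 1. The untreated ratio compares different positions, since the WT summit lay 791 bp from the sgFLI1 summit and outside the sgFLI1 peak. The region 92.2 kb upstream went the other way, with 30 and 28 tags in the WT libraries and 10 and 14 in the FLI1-KO libraries, too few for the limit of more than 60 summed tags that a compared pair had to pass. Its untreated ratio was 0.387 (0.169 to 0.813) and its treated ratio 0.644 (0.313 to 1.27). A region 372.1 kb upstream, with 10 tags in WT and 11 in WT-IFN-γ, had no peak in either FLI1-KO list. Another 6 AHR regions in every list held 15 to 82 tags and stayed within the limit. The regions 27.5 and 41.1 kb into AHR were listed in both IFN-γ libraries and in neither untreated one, but they held 9 to 11 tags, near the lowest pileup of 7 or 8 that any list held.

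ARNT, which AHR needs to bind DNA, had 3 regions, and all 3 were in every list. The promoter region (chr1:150875982-150877159) held 154, 170, 142 and 145 tags in the 4 libraries, or scaled pileups of 19.1, 19.2, 20.5 and 21.1. The 4 libraries were nearly level, with ratios from 1.00 to 1.10 in the 4 pairs. The intronic region 55.5 kb into the gene, at chr1:150820417-150821548 in intron 14, was not steady. It held 22 (WT) and 60 (WT-IFN-γ) tags in wild-type cells and 48 (sgFLI1) and 49 (sgFLI1-IFN-γ) in knockout cells, so WT stood apart and the other libraries lay together at scaled pileups of 6.79, 6.92 and 7.14, against 2.74 (1.71 to 4.14) in WT. The ratio was 2.48 (1.5 to 4.25) for IFN-γ in WT cells and 2.53 (1.5 to 4.4) for FLI1-KO against WT untreated, and both rest on the 1 WT library. In FLI1-KO cells IFN-γ gave 1.03, and with IFN-γ the 2 genotypes gave 1.05.

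AHRR, the repressor that competes with AHR for ARNT, held 5 of the 9 regions that passed 1.5-fold in any pair. In untreated cells 12 AHRR regions could be compared, and 11 had a ratio of FLI1-KO to WT above 1, where 55.1% of all compared peaks did. With IFN-γ it was 10 of 11, where 43.4% of all compared peaks did. The median AHRR ratio was 1.30 untreated and 1.42 with IFN-γ. Shared peaks within 5 Mb of the AHRR TSS were also somewhat higher in FLI1-KO cells, with median ratios of 1.15 and 1.07 in the same order, and the part of this neighborhood shift in the AHRR values was not tested. All 18 AHRR regions also lie within the window of the readthrough gene PDCD6-AHRR, so none is particular to AHRR.

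In both treatments 3 intronic regions were past 1.5-fold, while the regions at 94.1 kb (1.49) and 16.2 kb (1.44) lay just inside the limit untreated. In intron 4, at chr5:386309-387383 and 65.0 kb into the gene, the summit held 104 (WT) and 87 (WT-IFN-γ) tags in wild-type cells and 200 (sgFLI1) and 124 (sgFLI1-IFN-γ) in knockout cells. The scaled pileups were 12.9 (10.6 to 15.7), 9.84 (7.88 to 12.1), 28.9 (25.0 to 33.1) and 18.1 (15.0 to 21.6), so both FLI1-KO libraries were above both WT libraries, sgFLI1 stood apart, and the intervals of WT and sgFLI1-IFN-γ overlapped. FLI1-KO was higher by 2.23-fold untreated (1.75 to 2.86) and by 1.84-fold with IFN-γ (1.38 to 2.44). In FLI1-KO cells the region was lower with IFN-γ, at a ratio of 0.627 (0.497 to 0.788), which came to 0.698 and inside the limit when centred on the median within 5 Mb.

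In intron 5, at chr5:413407-414579 and 92.2 kb into the gene, the summit held 36, 30, 86 and 75 tags in the 4 libraries. Scaled pileups of 12.4 and 10.9 in the FLI1-KO libraries stood beside 4.48 and 3.39 in the WT libraries, and the genotypes did not overlap. This was the largest genotype ratio of any compared region of the 7 genes in either treatment, at 2.77 (1.86 to 4.21) untreated and 3.22 (2.08 to 5.10) with IFN-γ. The local background under the peak moved with it, from 7.32 and 7.53 tags in WT and WT-IFN-γ to 12.2 and 10.3 in the knockout libraries in the same order.

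In intron 3, at chr5:372569-374514 and 52.0 kb into the gene, the summit held 53 and 50 tags in WT and WT-IFN-γ and 76 and 82 in the knockout libraries. The ratio was 1.66 (1.16 to 2.41) untreated and 2.11 (1.47 to 3.07) with IFN-γ. Centred on the median of shared peaks within 5 Mb, the untreated ratio came to 1.44, inside the limit. The sequences of the intron 3 and intron 4 regions are shown as 2 of the 3 that were past the limit in both treatments, with every AHR-ARNT core in capitals on either strand. For intron 3 they are the 300 bases with the most extended motifs (chr5:373666-373965), where the extended form is TNGCGTG, and for intron 4 the 201 bases at the summit (chr5:386624-386824), both on the plus strand.

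AHRR intron 3: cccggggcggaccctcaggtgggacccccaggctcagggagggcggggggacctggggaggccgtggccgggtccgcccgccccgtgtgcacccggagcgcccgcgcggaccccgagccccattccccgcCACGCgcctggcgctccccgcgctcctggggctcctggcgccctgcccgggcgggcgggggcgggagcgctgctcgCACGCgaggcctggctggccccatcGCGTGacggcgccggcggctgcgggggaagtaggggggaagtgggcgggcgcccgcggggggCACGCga
AHRR intron 4: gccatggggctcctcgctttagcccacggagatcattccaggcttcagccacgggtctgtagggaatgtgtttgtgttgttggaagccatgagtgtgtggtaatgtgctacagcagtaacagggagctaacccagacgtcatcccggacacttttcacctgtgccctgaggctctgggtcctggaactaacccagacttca

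The intron 3 window holds 4 cores in GC-rich DNA, while the intron 4 region, with more tags, holds none over its whole length.

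**Figure D2:**
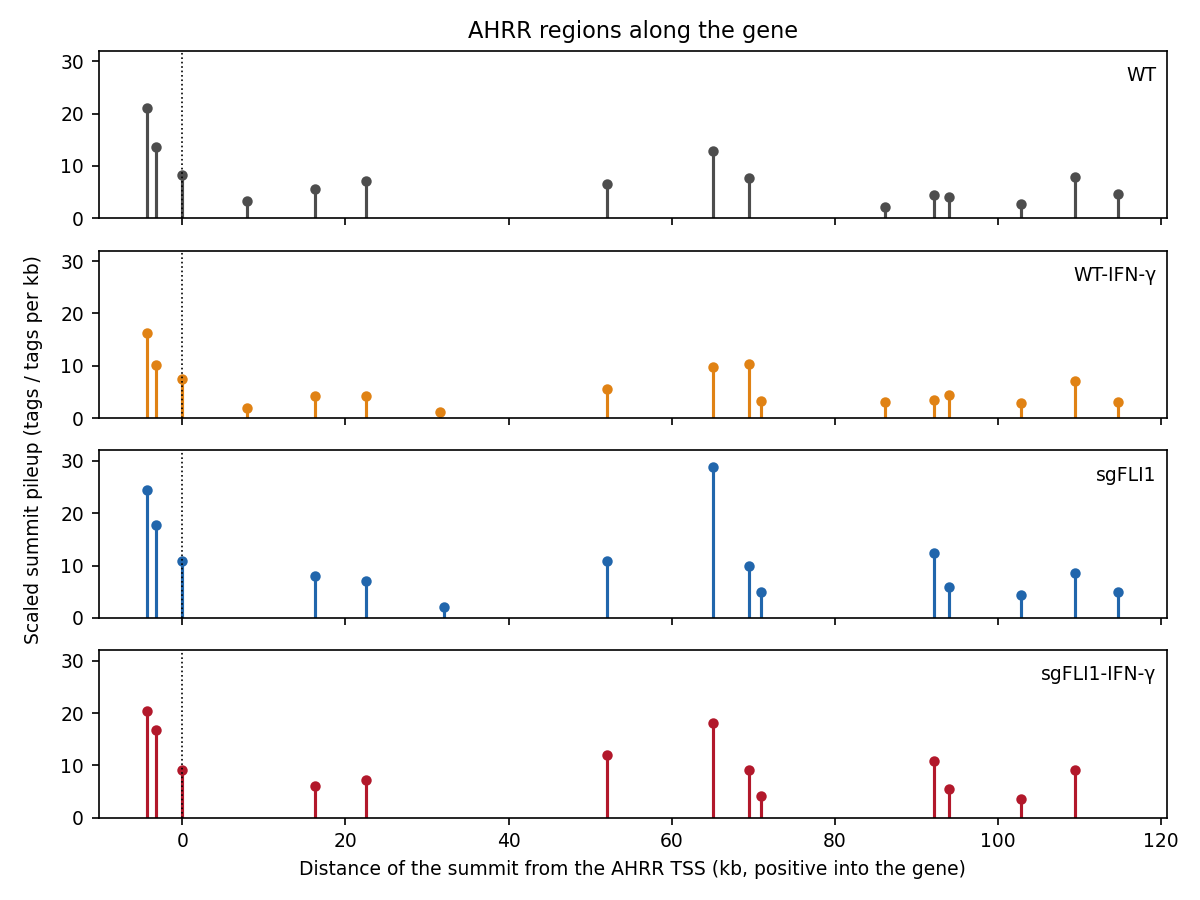
Scaled summit pileup (tags divided by tags per kb, y axis) of each AHRR region against the distance of its summit from the AHRR TSS in kb (x axis), with 1 panel per library and a dotted line at the TSS. The regions at 65.0 and 92.2 kb stand at 28.9 and 12.4 in sgFLI1 against 12.9 and 4.48 in WT.

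The AHRR start itself was less open than the DNA before it. The promoter region (chr5:321397-321747) had scaled pileups of 8.33, 7.47, 10.8 and 9.18 in the 4 libraries, on a high local background of 25.7 to 28.7 tags. A region 4.31 kb upstream reached 21.1, 16.2, 24.4 and 20.4, and one 3.21 kb upstream 13.7, 10.2, 17.7 and 16.8. The latter was higher in FLI1-KO with IFN-γ by 1.65-fold (1.24 to 2.19). In intron 2, 22.6 kb into the gene, WT-IFN-γ was low at 37 tags against 57 in WT and 49 in each FLI1-KO library. That 1 library gave both calls there, a ratio of 0.591 (0.380 to 0.909) for IFN-γ in WT and of 1.71 (1.09 to 2.69) for FLI1-KO with IFN-γ. Regions 7.9 and 86.2 kb into AHRR, with 17 to 28 tags in the WT libraries, had no peak in either FLI1-KO list. The other 5 AHRR regions in every list held 22 to 91 tags.

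TIPARP, the ADP-ribosyltransferase that AHR induces and that acts back on it, was open at its promoter and almost nowhere else. The promoter region (chr3:156673990-156676240) held 235 (WT) and 243 (WT-IFN-γ) tags in wild-type cells and 235 (sgFLI1) and 173 (sgFLI1-IFN-γ) in knockout cells, and stood at percentiles 98.8 to 99.9 of its lists by −log10 q. The sgFLI1-IFN-γ library was lowest in tags and in scaled pileup (25.2, against 27.5 to 33.9). IFN-γ in FLI1-KO cells gave a ratio of 0.744 (0.608 to 0.909), beside a median of 0.876 over shared peaks within 5 Mb. The other 4 TIPARP regions were each in 1 list, with 15 to 19 tags, 2 in WT and 2 in WT-IFN-γ. The summit of the promoter region is shown because it holds 5 cores, the most of any summit among the 61 regions (chr3:156674259-156674459, plus strand).

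TIPARP promoter: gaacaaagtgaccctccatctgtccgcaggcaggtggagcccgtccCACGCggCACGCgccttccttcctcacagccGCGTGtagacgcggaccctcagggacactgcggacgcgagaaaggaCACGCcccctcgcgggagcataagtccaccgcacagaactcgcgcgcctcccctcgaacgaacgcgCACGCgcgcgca

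CYP1A1, the cytochrome P450 whose induction is the usual readout of AHR activity, had 1 region in all 4 lists, at chr15:74725842-74726724, upstream of the TSS. Its summit held 76 (WT) and 76 (WT-IFN-γ) tags in wild-type cells and 66 (sgFLI1) and 70 (sgFLI1-IFN-γ) in knockout cells, or scaled pileups of 9.45, 8.60, 9.52 and 10.2. The libraries could not be told apart by counting error. FLI1-KO against WT gave 1.01 (0.713 to 1.42) untreated and 1.19 (0.845 to 1.66) with IFN-γ, and IFN-γ gave 0.91 (0.653 to 1.27) in WT and 1.07 (0.755 to 1.52) in FLI1-KO cells. The other 3 CYP1A1 regions were each in 1 list, with 16 to 27 tags. Over its 0.883 kb the shared region holds 6 cores, of which 4 have the extended form TNGCGTG, or 4.53 per kb against 0.156 per kb over all merged regions. The stretch with most of them, 816 to 1115 bp upstream of the TSS (chr15:74726344-74726643, plus strand), is shown because xenobiotic response elements upstream of CYP1A1 are a classic site of AHR binding, with cores in capitals.

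CYP1A1 upstream: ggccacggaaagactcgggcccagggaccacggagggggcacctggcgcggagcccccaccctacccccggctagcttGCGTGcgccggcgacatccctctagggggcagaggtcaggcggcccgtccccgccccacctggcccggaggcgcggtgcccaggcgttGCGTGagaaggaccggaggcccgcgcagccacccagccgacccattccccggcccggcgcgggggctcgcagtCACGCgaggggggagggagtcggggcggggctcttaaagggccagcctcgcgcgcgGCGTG

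CYP1B1, the second cytochrome P450 target, had a promoter region at chr2:38075841-38077515 with 115, 125, 98 and 88 tags in the 4 libraries. The scaled pileups of 14.3, 14.1, 14.1 and 12.8 were nearly level. The ratios of FLI1-KO to WT were 0.989 (0.747 to 1.31) untreated and 0.907 (0.682 to 1.2) with IFN-γ. This region holds 6 cores, 3 of them extended, and its densest 300 bases (chr2:38076879-38077178, plus strand) are shown beside those of CYP1A1 as the second induced enzyme, with cores in capitals.

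CYP1B1 upstream: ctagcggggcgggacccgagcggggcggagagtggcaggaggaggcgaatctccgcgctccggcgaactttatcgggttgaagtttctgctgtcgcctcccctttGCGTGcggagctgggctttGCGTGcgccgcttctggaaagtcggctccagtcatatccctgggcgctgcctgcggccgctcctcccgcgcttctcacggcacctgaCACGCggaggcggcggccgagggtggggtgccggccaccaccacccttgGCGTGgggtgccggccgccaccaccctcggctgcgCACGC

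The other 6 CYP1B1 regions lay upstream, in the window of the antisense gene CYP1B1-AS1, and 4 of them were in every list. The one 22.7 kb upstream (chr2:38098262-38099270) held 48 (WT) and 81 (WT-IFN-γ) tags in wild-type cells and 48 (sgFLI1) and 36 (sgFLI1-IFN-γ) in knockout cells, so that WT-IFN-γ stood highest. IFN-γ gave a ratio of 1.54 (1.06 to 2.24) in WT and of 0.758 (0.478 to 1.19) in FLI1-KO cells, and with IFN-γ FLI1-KO was lower, at 0.573 (0.376 to 0.858). These calls share the WT-IFN-γ library, and the difference between the 2 IFN-γ ratios was not tested. The region 20.3 kb upstream held 59, 60, 69 and 67 tags and was higher in FLI1-KO by 1.36-fold (0.945 to 1.95) and 1.44-fold (1.00 to 2.07), within the limit. It is shown because both cores at its summit are of the extended form (chr2:38096312-38096512, plus strand).

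CYP1B1 20.3 kb upstream: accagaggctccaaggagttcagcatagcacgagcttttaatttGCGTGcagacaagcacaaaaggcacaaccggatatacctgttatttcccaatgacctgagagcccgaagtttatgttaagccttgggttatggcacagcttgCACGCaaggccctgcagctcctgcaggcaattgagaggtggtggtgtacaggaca

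SLC7A5, the transporter gene, held the 1 region that was past the limit downward in FLI1-KO cells in both treatments. This region 15.1 kb into the gene, in intron 1 at chr16:87853521-87855133, held 143 (WT) and 144 (WT-IFN-γ) tags in wild-type cells and 71 (sgFLI1) and 66 (sgFLI1-IFN-γ) in knockout cells. The genotypes did not overlap, at scaled pileups of 17.8 and 16.3 against 10.2 and 9.62, and the ratios were 0.576 (0.427 to 0.771) untreated and 0.590 (0.434 to 0.796) with IFN-γ. The neighborhood was lower too. Shared peaks within 5 Mb had median ratios of 0.805 and 0.784, and centred on these the region came to 0.716 and 0.753, inside the limit. The local background under the peak was 43.4 and 37.0 tags in WT and WT-IFN-γ and 19.8 and 19.2 in the knockout libraries in the same order. The WT-IFN-γ summit of this region is shown because the region was lower in both FLI1-KO libraries (chr16:87854335-87854535, plus strand). The sgFLI1 summit lay outside these 201 bases, 694 bp from the WT summit, so the untreated ratio compares different positions. The 201 bases hold none of the motifs searched, while the whole region holds 3 AHR-ARNT cores and 2 AP1 motifs.

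SLC7A5 15.1 kb into the gene: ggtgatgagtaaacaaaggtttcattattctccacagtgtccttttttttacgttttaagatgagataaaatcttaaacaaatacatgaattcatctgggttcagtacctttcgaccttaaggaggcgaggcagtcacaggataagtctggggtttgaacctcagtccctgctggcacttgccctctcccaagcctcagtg

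At the SLC7A5 promoter, the region 1.84 kb upstream (chr16:87870441-87871801) held 128 and 104 tags in WT and WT-IFN-γ and 87 and 62 in the knockout libraries. Its scaled pileup was highest in WT, at 15.9, and lowest in sgFLI1-IFN-γ, at 9.04. IFN-γ gave 0.739 (0.565 to 0.965) in WT and 0.720 (0.511 to 1.01) in FLI1-KO cells. The region over exon 1 was listed in WT, sgFLI1 and sgFLI1-IFN-γ, with 65, 55 and 58 tags, and not in WT-IFN-γ. In WT it stood on a local background of 30.9 tags and at percentile 19.0 of its list. The intron 1 region 8.61 kb into the gene held 60, 54, 57 and 56 tags, or scaled pileups of 7.46, 6.11, 8.22 and 8.16, and its ratios stayed within the limit. A region 34.6 kb into the gene was listed in both FLI1-KO libraries alone, with 34 tags untreated and 24 with IFN-γ.

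Over all 7 genes, FLI1-KO against WT gave 6 gained and 10 lost peaks in untreated cells, or 13.6% of the 44 sgFLI1 peaks, where 25.3% of all sgFLI1 peaks were gained, and 20.8% of the 48 WT peaks, where 21.4% of all WT peaks were lost. With IFN-γ it gave 4 gained and 8 lost peaks, or 9.09% and 16.7%, where 19.8% and 29.0% of all peaks were. Of 33 shared regions that could be compared untreated, 5 were higher past 1.5-fold and 1 lower, where 9.88% of all compared peaks were higher and 6.13% lower. With IFN-γ 6 of 31 were higher and 2 lower, where 6.14% were higher and 9.88% lower. The median log2 ratio was 0.18 untreated and 0.25 with IFN-γ, beside 0.05 and −0.06 over all compared peaks. Ratios above 1 were 23 of 33 untreated and 21 of 31 with IFN-γ, where 55.1% and 43.4% of all compared peaks were above 1. Of these, AHRR alone gave 11 of its 12 ratios untreated and 10 of its 11 with IFN-γ. AHRR held 3 of the 5 and 5 of the 6 higher regions. The 2 genotype comparisons share no library, but both set FLI1-KO cells against WT cells. Differences between these cells other than FLI1 could recur in both, which was not tested. In both, 5 regions passed the limit in the same direction: AHRR at 52.0, 65.0 and 92.2 kb, AHR 257.2 kb upstream and, lower in FLI1-KO, SLC7A5 at 15.1 kb. These were 4 higher and 1 lower of the 31 regions compared in both, where 3.40% of all such regions were higher in both and 2.58% lower. Centred on the median within 5 Mb, AHRR at 52.0 kb untreated (1.44) and SLC7A5 at 15.1 kb in both treatments (0.716 and 0.753) came inside the limit. In 15 of the 18 ratios past the limit, the summits compared lay within 300 bp of each other, and the other 3 were untreated ratios of AHR at 257.2 kb, AHRR at 92.2 kb (422 bp apart) and SLC7A5 at 15.1 kb (694 bp apart).

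**Figure D3:**
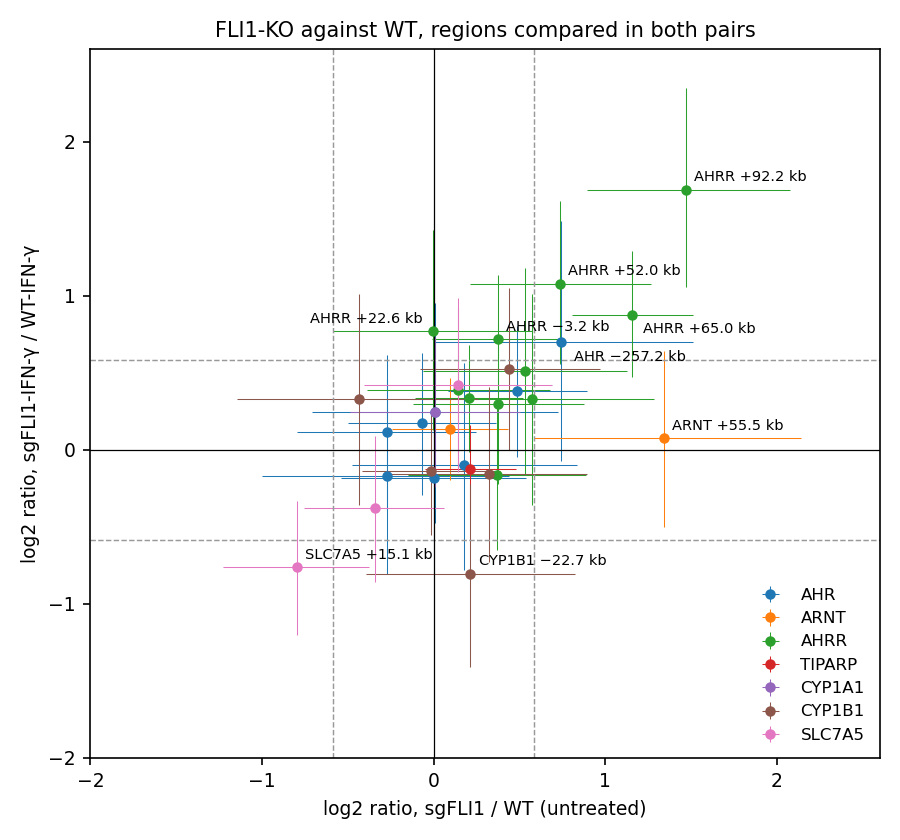
log2 ratio of scaled summit pileups of FLI1-KO to WT cells, untreated (x axis) and with IFN-γ (y axis), for the 31 regions compared in both, with counting intervals, dashed lines at 1.5-fold and the name and distance from the TSS of each region past it. The AHRR regions at 52.0, 65.0 and 92.2 kb lie past both upper limits and SLC7A5 at 15.1 kb past both lower limits.

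Fewer shared regions passed the limit between IFN-γ and untreated cells than between genotypes, and the same was so over all compared peaks. In WT cells 8 peaks were gained and 8 lost, 16.7% each of the 48 peaks, where 25.2% of all WT-IFN-γ peaks were gained and 15.9% of all WT peaks lost. In FLI1-KO cells 5 were gained and 5 lost, 11.4% each of the 44 peaks, where 18.0% and 22.2% of all peaks were. Of 32 shared regions compared in WT, 2 were higher past the limit (ARNT at 55.5 kb and CYP1B1 22.7 kb upstream) and 1 lower (AHRR at 22.6 kb), where 5.04% and 3.73% of all compared peaks were. In FLI1-KO cells 0 of 33 were higher and 1 lower (AHRR at 65.0 kb), where 0.514% and 4.14% were. Ratios above 1 were 10 of 32 in WT and 12 of 33 in FLI1-KO cells, where 40.1% and 25.3% of all compared peaks were above 1. At AHRR they were 2 of 12 and 3 of 12. The median log2 ratio was −0.15 in WT and −0.09 in FLI1-KO cells, beside −0.06 and −0.16 over all compared peaks. Of the 30 regions compared in both genotypes, 0 passed the limit in both, where 0.0602% of all such regions were higher in both and 0.224% lower.

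**Figure D4:**
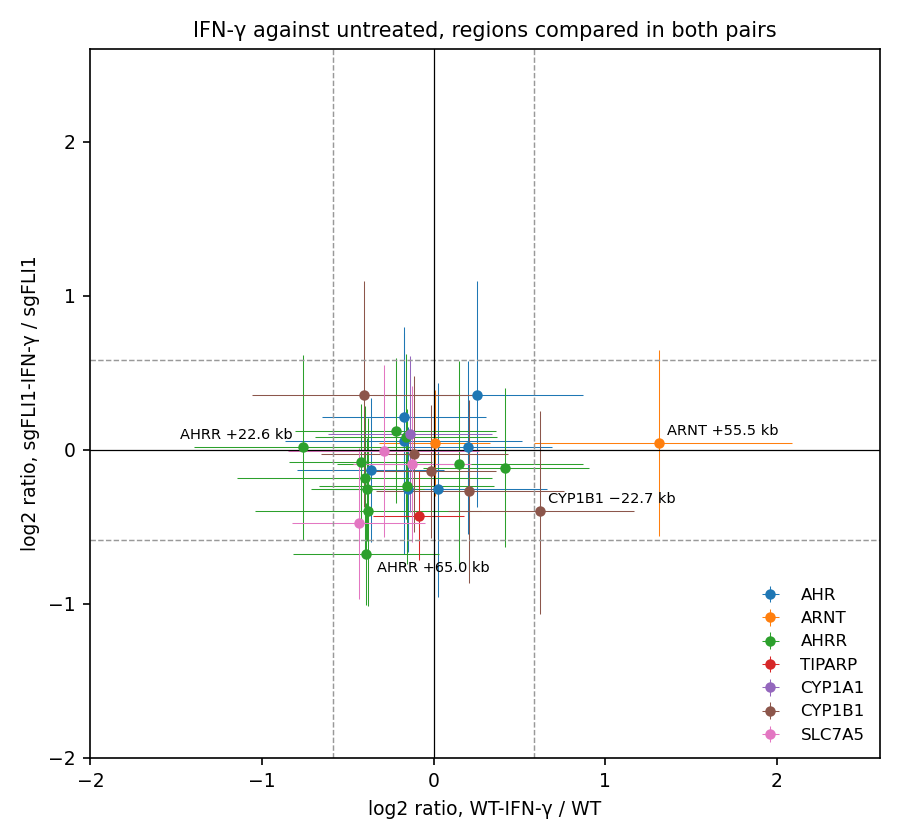
log2 ratio of scaled summit pileups with IFN-γ to untreated, in WT (x axis) and in FLI1-KO cells (y axis), for the 30 regions compared in both, with counting intervals and dashed lines at 1.5-fold. ARNT at 55.5 kb lies at 2.48-fold in WT and 1.03-fold in FLI1-KO cells, and no region is past the limit on both axes.

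**Figure D5:**
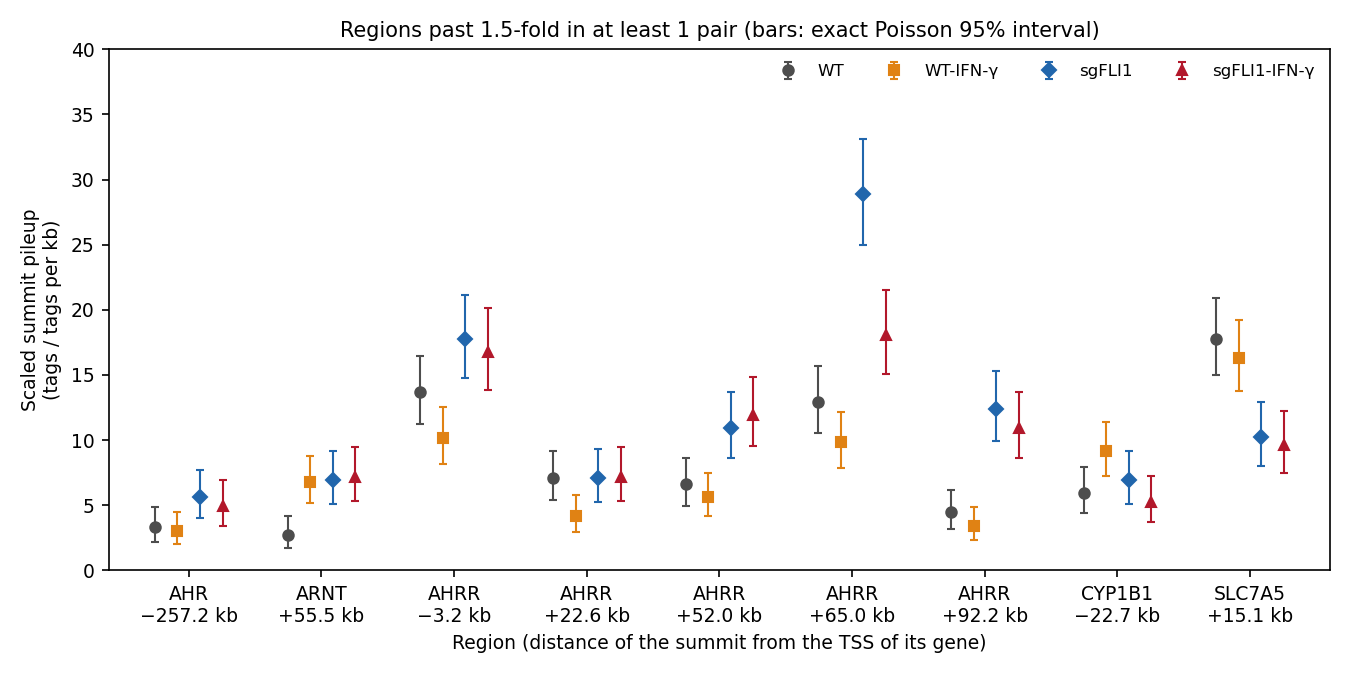
Scaled summit pileup (tags divided by tags per kb, y axis) in the 4 libraries at the 9 regions past 1.5-fold in at least 1 pair (x axis), with exact Poisson 95% intervals. At AHRR 92.2 kb both FLI1-KO libraries are above both WT libraries, and at SLC7A5 15.1 kb both are below.

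Either strand was read for each motif. In the 100 bp to each side of a summit the core GCGTG was found in 8 of 48 WT peaks (16.7%), 13 of 48 WT-IFN-γ peaks (27.1%), 15 of 44 sgFLI1 peaks (34.1%) and 14 of 44 sgFLI1-IFN-γ peaks (31.8%), where 20.4%, 19.7%, 20.8% and 20.8% of all peaks held it. The difference between the lists depended on the window: in the 250 bp to each side the counts were 21 of 48, 20 of 48, 22 of 44 and 20 of 44, where 38.2%, 37.1%, 38.5% and 38.7% of all peaks held the core. Over the whole length of the regions, the core occurred in 25 of 61 (41.0%, against 42.8% of all merged regions) and the extended form TNGCGTG, which contains the core, in 13 of 61 (21.3%, against 10.9%). AP1 (TGANTCA) occurred in 20 of 61 (32.8%, against 38.1%). The ETS motif CCGGAAGT, of the kind that FLI1 binds, occurred in 0 of 61 regions, where 2.06% of all regions held it. The form searched is exact and rare, so 0 of 61 cannot show that FLI1 sites are absent. In RefSeq promoters (GRCh38.p14, 250 bases before to 50 after the start), 6 of the 7 genes were matched, CYP1B1 not being among them, with 9 entries, of which 6 held the core, where 36.5% of 35116 promoters did.

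Of 17 other genes of the pathway, 11 had a promoter peak in all 4 lists. HSP90AA1, HSP90AB1 and PTGES3, chaperone genes of the receptor complex, were open in every list. CYP1A2 (the liver enzyme beside CYP1A1), ARNT2 (the neural relative of ARNT) and EREG (epiregulin, a growth factor) had no promoter peak in any list. ALDH3A1 had one in WT-IFN-γ alone, SERPINB2 in sgFLI1 alone, and SLC7A8 in every list but WT. Of the 11 promoters that could be compared, with median log2 ratios of −0.01 (untreated) and −0.11 (IFN-γ) between genotypes and −0.14 (WT) and −0.22 (FLI1-KO) under IFN-γ, none passed 1.5-fold between genotypes, and UGT1A6, a glucuronidation enzyme, was lower with IFN-γ in both. Its region held few tags, 28 (WT) and 14 (WT-IFN-γ) in wild-type cells and 18 (sgFLI1) and 8 (sgFLI1-IFN-γ) in knockout cells, giving ratios of 0.455 (0.221 to 0.894) in WT and 0.449 (0.169 to 1.09) in FLI1-KO cells, on summed tags below the limit set for the 7 genes.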

How the data were processed

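ATAC-seq peak lists of 4 HK1 libraries were analysed, 1 per group. Per the labels and the study's methods, the authors used Trimmomatic 0.3 for trimming and Bowtie2 2.3.4.1 for alignment to GRCh38, removed low-quality alignments and Picard duplicates, and called peaks with MACS2 2.1.2. Whether reads were shifted for the transposase, whether a list is before or after the reproducibility filter that the methods name, and whether replicates were pooled are not given in the sources used here. For each peak the deposited lists hold a score, the fold enrichment over local background, −log10 p and −log10 q values, and the offset of the summit from the peak start.

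The pileup and its local background were solved from fold and −log10 p, with a relative tolerance of 0.001 on p, and came out whole for all peaks. Pileups were divided by tags per kb, from the lowest background of the list and its shortest peak. Genes came from GENCODE v44. Peaks were merged on 1 shared base, and a peak sharing none with the other list was called gained or lost. Ratios were compared at one-to-one shared peaks with more than 60 summed tags and called past 1.5-fold. No test was run. Scripts were tested on simulated data, in Python 3.11.15 (scipy 1.17.1, numpy 2.4.6, matplotlib 3.10.9, pandas 2.3.3). The 7 genes, the lists and the motifs were chosen with earlier results of these data known. All 7 genes were named. Of the 17 others, those without a promoter peak in a list or past 1.5-fold at the region nearest the TSS were named. The chaperone genes HSP90AA1, HSP90AB1 and PTGES3 were named outside this rule. Genes of like pattern were to be named for promoters past 1.5-fold, and there were 0. Alternatives changed the q limit, list length, gene window, overlap, scaling, fold limit and motif window. Some sequences and 1 gene are not reported here.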

Additional observations from a re-analysis of the deposited data

Results flagged for a closer look

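For 2 genes the number of peaks moved in opposite directions in matched comparisons. With IFN-γ, AHRR changed by 2 peaks in WT (from 15 to 17) and by -2 in FLI1-KO cells (from 15 to 13). CYP1B1 changed by -1 peak in FLI1-KO against WT untreated (from 7 to 6) and by 1 with IFN-γ (from 5 to 6). Each rests on single libraries, and neither difference was tested.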

How the results depend on the processing

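Of 231 values recomputed with another setting, 197 moved by less than their limit and 34 by more. The label reversed was given to 0, but it did not count ratios near 1 that crossed 1. All 112 promoter ratios were among the 197, yet some crossed 1. For AHR, IFN-γ in FLI1-KO cells gave 0.914 and, centred on the genome-wide median, 1.02. For ARNT, FLI1-KO against WT untreated gave 1.07 and, centred on the chromosome median, 0.978. At −log10 q of at least 5, IFN-γ gave 2 gained and 3 lost in WT and 3 gained in FLI1-KO cells, and FLI1-KO against WT gave 3 gained and 5 lost untreated and 2 gained and 4 lost with IFN-γ. At 10 or more, IFN-γ gave 3 gained in WT and 1 in FLI1-KO cells, and FLI1-KO gave 3 gained and 4 lost untreated and 5 lost with IFN-γ. With lists of equal length, IFN-γ gave 3 gained in WT and 3 lost in FLI1-KO cells, and FLI1-KO with IFN-γ gave 7 gained and 5 lost. With 3 kb upstream in place of 10 kb, FLI1-KO with IFN-γ gave 2 gained. With 50% reciprocal overlap, IFN-γ in FLI1-KO cells gave 9 gained and 9 lost, and FLI1-KO with IFN-γ 7 gained. At a 2-fold limit, IFN-γ gave 1 higher and 0 lower in WT and 0 lower in FLI1-KO cells, and FLI1-KO gave 3 higher and 0 lower untreated and 2 higher and 0 lower with IFN-γ. Centred on the genome-wide median, IFN-γ in FLI1-KO cells gave 0 lower. When pileups were divided by the lowest background of the list alone, FLI1-KO untreated gave 7 higher, against 5 in the main scaling. The core motif lay within 250 bp of 21 untreated and 20 treated WT summits and of 22 untreated and 20 treated FLI1-KO summits, and the extended form within 100 bp of 2 untreated and 3 treated WT summits and of 5 untreated and 4 treated FLI1-KO summits. With the window of the canonical transcript, chosen after seeing the data, WT held 31 peaks and sgFLI1-IFN-γ 29, 23 regions were in all 4 lists, IFN-γ gave 5 lost in WT and 3 gained in FLI1-KO cells, and FLI1-KO untreated gave 6 lost. The cause of these moves was not tested. Of 18 ratios past 1.5-fold, 14 stayed past it in all 5 other scalings, a check also chosen after seeing the data. The exceptions were AHRR at 65.0 kb with IFN-γ in FLI1-KO cells, AHRR at 52.0 kb untreated, and SLC7A5 at 15.1 kb in both treatments. No paired analysis was possible because each group had 1 library. Regions near the lowest listed pileups of 7 or 8 tags lie at the limit of what a list can hold.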
